A study of Homo sapiens with 2 samples.

Results

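The mRNAs described here encode HIF1A, the oxygen-regulated subunit of hypoxia-inducible factor 1, and PKM, PGAM1 and ENO1, which are enzymes of the lower steps of glycolysis. They were chosen because each carries a peak of eIF4A1-associated RNA: for HIF1A, PKM and PGAM1 the peak whose gene ID in the authors' table is that gene, and for ENO1 the peak that lies inside its gene body but is listed under the microRNA gene MIR6728. The rule found 4 peaks, 1 for each of the 4 genes, among 1920 peaks in all. RNA immunoprecipitation followed by sequencing was carried out on a cytoplasmic lysate of DU145, a long-established line of human prostate cancer cells, grown without any treatment named in the labels. The same cleared lysate was split, with rabbit anti-eIF4A1 added to one portion and control IgG of rabbit to the other, and each group is 1 library, so no value below has a replicate error and no test between groups was made. The genes were selected on the presence of a called peak, which rests on the fold, p and q of this same contrast, so these values are given as a description.

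eIF4A1 is the helicase that works within the cap-binding complex eIF4F, where it opens structure in the 5' leader of an mRNA so that the small ribosomal subunit can reach the start codon. HIF1A protein is made continuously and destroyed when oxygen is present, because prolyl hydroxylases (EGLN1, EGLN2 and EGLN3) mark it for the VHL ubiquitin ligase, so its rate of translation helps to set its level. When stable, it pairs with ARNT, recruits the coactivators CREBBP and EP300, and raises transcription of many genes of glycolysis. PGAM1 (phosphoglycerate mutase), ENO1 (enolase) and PKM (pyruvate kinase) act one after another in the conversion of phosphoglycerate to pyruvate.

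The peak at HIF1A covered the start of its reading frame. It ran from 157 to 320 bases after the RefSeq 5' end of the gene (chromosome 14, 61695670 to 61695833, hg38), with its summit 172 bases after that end. Of its 164 bases, the last 60 could be read from a RefSeq promoter window (GRCh38.p14), that of the antisense gene HIF1A-AS1, and these hold a single ATG on the HIF1A strand. This ATG (61695805 to 61695807), known as the HIF1A start codon, lies 120 bases after the summit and 26 bases before the end of the peak. The 30 bases of the peak around this ATG lie after the summit, toward the end of the peak. They are shown for the junction of leader and coding sequence, with the ATG in capitals (5' to 3', plus strand, chr14:61695791-61695820).
HIF1A: gggaccgattcaccATGgagggcgccggcg

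**Figure D1:**
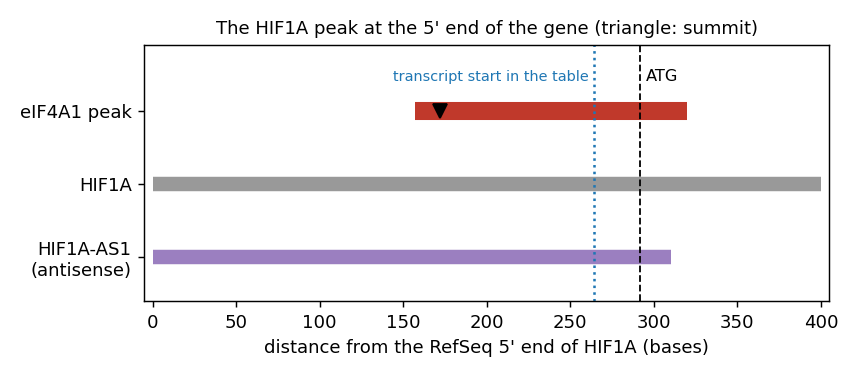
Map of the first 400 bases of HIF1A, with distance from its RefSeq 5' end in bases on the x axis. The peak (red, with its summit as a triangle) runs from 157 to 320 bases and spans the ATG at 292 bases (dashed line), and the antisense gene HIF1A-AS1 (purple) overlaps most of it.

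The authors' table placed the HIF1A summit 92 bases before the start of 1 annotated transcript and gave it the class promoter within 1 kb. That transcript starts 264 bases after the RefSeq 5' end, so the summit lies inside the RefSeq gene and upstream of this shorter transcript. HIF1A-AS1, a long noncoding RNA on the opposite strand, has its 5' end at 61695823 and also covers the summit. Peak strand is absent from both deposited tables, so RNA of HIF1A and of HIF1A-AS1 cannot be told apart here. Another 2 antisense genes held 0 peaks: HIF1A-AS2 near the 3' end of HIF1A, and HIF1A-AS3 (61715558 to 61751097), which covers much of the gene.

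At the HIF1A summit 9 eIF4A1 reads were stacked (95% Poisson interval 4.12 to 17.1) against 1 control read. Reads were recovered from the authors' fold and −log10 p, since the tables hold no counts, and the interval covers counting error only. The authors' fold over control, which adds 1 read to both sides, was 5.32 with a −log10 q of 2.75. The plain ratio of reads, with the control scaled to the eIF4A1 library, was 10.2 with an exact interval from 1.42 to 448. Only 5.62% of all peaks had as many reads or more. At 164 bases the peak was also among the wider ones, since 96.0% of peaks were narrower and the median width was 27 bases.

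PKM had the same summit values as HIF1A, at the other end of its gene. Its peak (chromosome 15, 72202467 to 72202555, 89 bases wide) had 9 eIF4A1 reads against 1 control read at the summit, and therefore the same fold of 5.32 and the same −log10 q of 2.75. The summit lies 29037 bases after the RefSeq 5' end and 3525 bases before the 3' end, at 89.2% of the gene. The authors' class is again promoter within 1 kb, because the table measured from the start of a short transcript of 3018 bases near the 3' end, 501 bases further along. PKM makes alternative M1 and M2 forms from exons in the 3' part of the gene; exon coordinates were not used here, so the peak is not assigned to either form.

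A second peak lies in PKM that the rule does not take, because the authors' table lists it under the neighbouring gene GRAMD2A. This peak (chromosome 15, 72199131 to 72199174) has its summit 143 bases before the RefSeq 3' end of PKM and 1385 bases outside GRAMD2A. It had 11 eIF4A1 reads at the summit (95% Poisson interval 5.49 to 19.7) against 2 control reads. This is more reads than at the listed PKM peak, but the fold was lower, at 4.35 with a −log10 q of 1.90, and the plain ratio of reads was 6.25 (exact interval 1.36 to 58.1). The difference between 11 and 9 reads is within counting error. PKM thus held 2 peaks by gene body, both in the last part of the gene, while HIF1A, PGAM1 and ENO1 held 1 each.

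PGAM1 had the highest fold of the 4 genes on the fewest reads. Its peak (chromosome 10, 97430608 to 97430640, 33 bases wide) lies in exon 2 of a transcript with 4 exons, by the authors' annotation, with the summit 4432 bases after the RefSeq 5' end. At the summit 5 eIF4A1 reads were stacked (95% Poisson interval 1.62 to 11.7) against 0 control reads. The background there came from 27 control reads in the surrounding 10 kb. The fold was 5.73 and the −log10 q 5.14, higher than at 74.3% of peaks. The exact interval of the plain ratio of reads began at 1.04 and, with a control count of 0, had no upper end.

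ENO1 carried its peak close to the 3' end. The peak (chromosome 1, 8861289 to 8861325, 37 bases wide) has its summit 325 bases before the RefSeq 3' end, at 98.2% of the gene, and the authors' class is 3' UTR. MIR6728, the name under which it is listed, is a microRNA gene of 89 bases inside ENO1 (8866502 to 8866590). Its nearer end lies 5177 bases from the summit, so the peak does not touch it. At the summit 8 eIF4A1 reads (95% Poisson interval 3.45 to 15.8) stood against 1 control read. The fold was 4.79 and the −log10 q 1.87, with 14.2% of peaks below it, and the weakest peak in the deposited list had 1.30. The plain ratio of reads was 9.09, with an exact interval from 1.22 to 404.

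**Figure D2:**
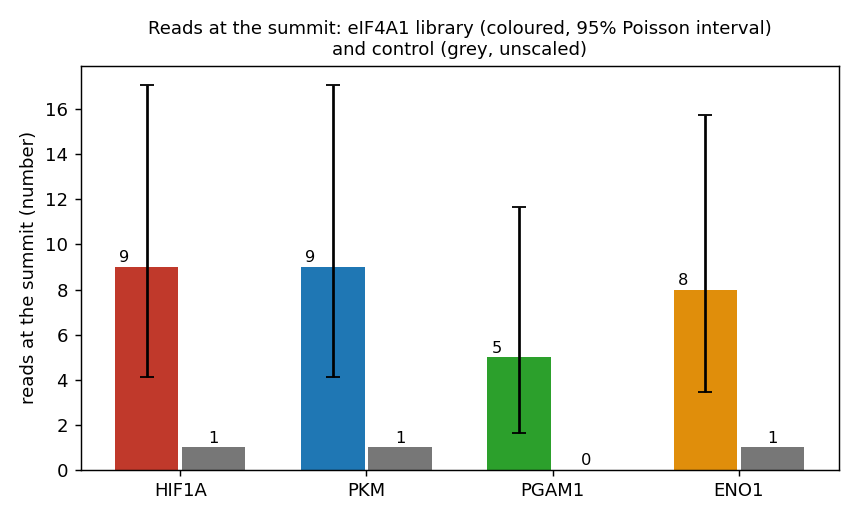
Reads at the summit (number, y axis) for the 4 genes, with the eIF4A1 library as coloured bars and 95% Poisson intervals and unscaled control reads as grey bars. HIF1A and PKM have 9 reads, ENO1 8 and PGAM1 5, the intervals overlap, and the control has 1, 1, 1 and 0.

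Reads at the 4 genes were too few to rank the genes. The intervals of 9, 9, 8 and 5 reads all overlap, and the order of the genes depended on the measure used. No test between genes was made, and overlap of such wide intervals does not show that the genes are alike. By reads, HIF1A and PKM stood first and PGAM1 last. By fold and by −log10 q PGAM1 stood first, since both measures rise as the background falls. ENO1 stood last by these measures, with 1 read fewer than HIF1A and PKM over the same background. At PGAM1 the background was 0.0475 reads, against 0.880 reads, the scaled value of 1 control read, at HIF1A, PKM and ENO1. With the background of PGAM1 also set to 1 control read, its −log10 p fell from 10.8 to 3.52, below the lowest deposited value of 5.59.

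Compared with the peak set as a whole, HIF1A, PKM and ENO1 were peaks of many reads over a control that also had a read. The median peak had 3 reads over a background of 0.0176. A background of at least 1 control read was found at 113 of 1920 peaks (5.89%), of which 65 were at exactly 1. Their −log10 q was therefore low for their reads: 75.9% of peaks had a −log10 q as high as that of HIF1A and PKM or higher, although 94.4% had fewer reads. Among the 20 peaks with 9 reads the fold ranged from 4.86 to 9.19 with a median of 5.32, so HIF1A and PKM were typical of that class. Among the 40 peaks with 8 reads the fold ranged from 4.79, the value of ENO1, to 8.55.

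**Figure D3:**
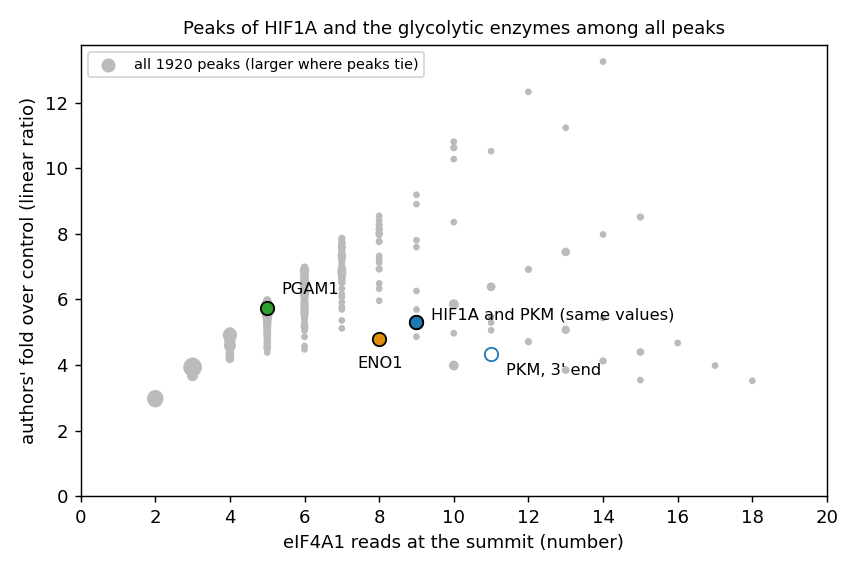
The authors' fold over control (linear ratio, y axis) against eIF4A1 reads at the summit (number, x axis) for all 1920 peaks in grey, larger where peaks tie. HIF1A and PKM share the point at 9 reads and 5.32, ENO1 lies at 8 reads and 4.79, PGAM1 at 5 reads and 5.73, and the open circle is the second PKM peak at 11 reads and 4.35.

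Other genes had peaks with nearly the same values, as measured by the difference in fold among peaks of the same read number in this 1 library. For HIF1A and PKM the nearest were PINK1, PMF1-BGLAP and OPTN, all at a fold of 5.32, but of these peaks the first has its summit in CDA and the second in SLC25A44. In total 13 peaks, HIF1A and PKM included, had exactly these values, so the match singles out no gene. Among them was EP300, whose protein is a coactivator of HIF1A. For PGAM1 the nearest were the receptor phosphatase genes PTPRS (5.75) and PTPRF (5.70) and the tight-junction gene CGN (5.70). For ENO1 they included ILF2 and BCL9L, both at 4.79. Here too many genes tied, 20 at the 5.70 of PTPRF and CGN and 15 at the 4.79 of ENO1, and those named were taken in order of peak number.

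How many of the 4 genes kept a peak depended on the definition of a peak, and since the rule used this contrast nothing is read from these counts against the background. A −log10 q of at least 5 kept PGAM1 alone (2.1% of protein-coding genes had such a peak). A fold of at least 5 kept HIF1A, PKM and PGAM1 (1.65%), and at least 5 reads kept all 4 (1.9%). Raising the background to 1 control read or more kept HIF1A, PKM and ENO1 (0.504%). Exon and UTR classes without the promoter class kept PGAM1 and ENO1 (2.59%). ENO1 is counted here through the peak listed under MIR6728, whereas these percentages count genes by the name in the authors' table.

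The peaks fell at different places along the genes. HIF1A had its summit at 0.326% of the gene from the 5' end, PGAM1 at 61.1%, PKM at 89.2% and ENO1 at 98.2%. These are shares of the genomic span, introns included, and positions along the spliced mRNA were not measured. The PGAM1 peak, for example, lies in exon 2 of 4 by the authors' annotation. HIF1A alone of the 4 genes had its summit near the 5' end of the genomic span. The antisense gene HIF1A-AS1 also covers that summit, and peak strand is absent, so the RNA there is not assigned to either gene. HIF1A and PKM, with summits toward opposite ends of their genes, share the promoter class in the authors' table, as do 57.3% of all annotated peaks. The class is measured from the nearest annotated transcript start of any length.

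**Figure D4:**
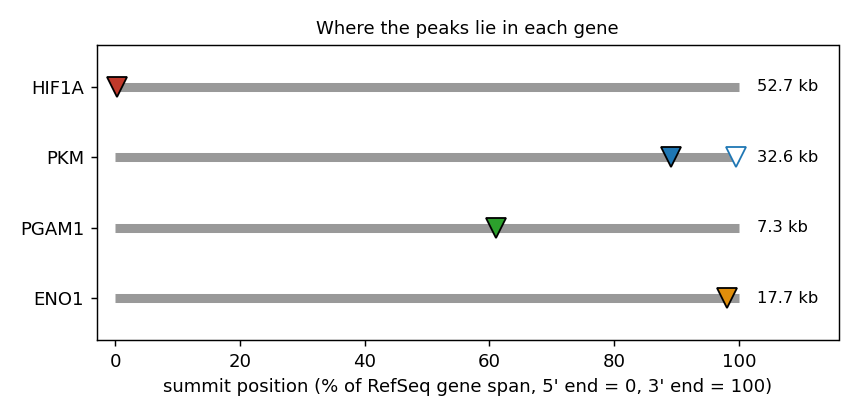
Summit position as a percentage of the RefSeq gene span from the 5' end (x axis) for each gene, with gene length at the right. The summit of HIF1A is at the 5' end, those of PKM (89.2%) and ENO1 (98.2%) are near the 3' end, and the open triangle is the second PKM peak listed under GRAMD2A.

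G and C content at transcript starts varied among the 4 genes. In the RefSeq promoter windows (250 bases before to 50 after a transcript start, matched for all 4 genes), the first 50 transcribed bases held 60% G and C at the 5' end of HIF1A, 58% at ENO1 and 66% at PKM, whose window starts 401 bases inside the gene. The median over 22199 windows of protein-coding genes was 64%, with quartiles of 54% and 72%. The PGAM1 window, 1627 bases inside the gene, held 46%, and a second HIF1A window, 2199 bases inside that gene, held 34%, both below the first quartile. The letters GGCGGC, a short form of the GGC repeats described in eIF4A-dependent leaders, were searched on both strands. They stood in the windows of HIF1A (5' end), PKM and ENO1, but not in those of PGAM1 or the second HIF1A start. They stood in 43.8% of all windows and in 52.4% of the windows of genes with a peak. Most of each window lies before the transcript start, so a hit does not place the letters in an RNA leader. They also stood in the 60 readable bases of the HIF1A peak, as they did in 19.7% of windows over the last 60 bases. These 60 bases of HIF1A lie on either side of the ATG. The letters do not stand in full within the stretch printed above, so the hit is not assigned to the leader.

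Near-identical copies limit the assignment of reads to the enzyme genes. RefSeq lists 13 pseudogenes named after PGAM1, 5 after PKM, 4 after ENO1 and 1 after HIF1A, and 0 peaks overlapped any of them. No peak overlapped PGAM4, an intact retrocopy of PGAM1 on the X chromosome, either. The sources used here do not say how reads that match several copies were handled, so the PGAM1, PKM and ENO1 values are uncertain to that extent.

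Outside the genes chosen here, the glycolytic pathway had 0 or 1 gene with a peak, depending on the assignment, which at this list size is near the background. Of the 24 genes from hexokinase to pyruvate kinase, 2 were named in the authors' table, PKM and PGAM1 (8.33%), against 6.83% of the 20056 RefSeq protein-coding genes. By the RefSeq gene at the summit there were 4, with ENO1 and GAPDHS added (16.7%, against 6.98% of protein-coding genes), and all but GAPDHS were chosen for having a peak. Leaving out PKM, PGAM1 and ENO1, the authors' table named 0 of the remaining 21 and the gene body gave 1 (4.76%). The GAPDHS peak (fold 2.94, 2 reads), in the sperm form of glyceraldehyde phosphate dehydrogenase, also lies in TMEM147-AS1, under which it is listed. GAPDH, ALDOA, TPI1 and PGK1, abundant enzymes of the same pathway, had no peak, nor did the hexokinases or phosphofructokinases. The isoenzyme genes PGAM2, ENO2, ENO3 and PKLR had none either. PGAM4, a relative of PGAM1 that was not in the list, is named in the authors' table for 1 peak (fold 2.95, 2 reads), but its summit lies 33570 bases outside PGAM4, in ATP7A.

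Among genes around glycolysis the counts were small and stood on both sides of the 6.83% of protein-coding genes. Of 12 genes for glucose entry and glycolytic control, which include the glucose transporters SLC2A1 and SLC2A3, 0 had a peak, and of 12 genes of the pentose phosphate and serine branches 0 had a peak. Of 24 genes for the fates of pyruvate and lactate, 2 had a peak (8.33%): PDK2 (fold 4.91, 4 reads) and PDK4 (2.94, 2 reads), kinases that switch off pyruvate dehydrogenase. LDHA, which makes lactate from the product of PKM, had none. In the tricarboxylic acid cycle 2 of 17 genes had a peak (11.8%). OGDH, a subunit of oxoglutarate dehydrogenase, had 2 exonic peaks (4.95 and 4.87, 4 reads each), and SDHA, a subunit of succinate dehydrogenase, had 1 (3.93, 3 reads).

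Among the partners of HIF1A more genes had a peak. Of 20 genes for HIF subunits and oxygen sensing, 6 had a peak by either assignment (30%), and without HIF1A itself 5 of 19 (26.3%), against 6.83% of protein-coding genes. The list was chosen with earlier results of these data known, and no test is attached to this difference. EPAS1, which encodes the second oxygen-regulated subunit HIF-2 alpha, had 3 peaks with folds of 2.93, 3.99 and 5.14 on 2, 10 and 5 reads. The peak of 10 reads stood over 2 control reads. The coactivator gene EP300 had 2 peaks, 1 with the same 9 reads against 1 control read as HIF1A (5.32, 147 bases wide) and 1 with 3 reads (3.99). CREBBP, its close relative, had 1 peak in its last exon (5.70, 5 reads).

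The prolyl hydroxylase genes, whose enzymes oppose HIF1A, had peaks of fewer reads. EGLN1, the main oxygen sensor of the pathway, had 1 peak inside the gene (4.52, 4 reads), and a second peak listed under it (4.91, 4 reads) lies in TSNAX-DT. EGLN3 had 1 peak of 20 bases (3.99, 3 reads). The remaining 14 genes of the list had none, among them VHL, the dimer partner ARNT, EGLN2 and the asparaginyl hydroxylase gene HIF1AN. With at least 5 reads required, 4 genes remained (HIF1A, EPAS1, CREBBP and EP300), against 1.9% of protein-coding genes.

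The HIF list genes with a peak were long. Their median span was 73.0 kb, against 23.0 kb for the 14 without a peak, 36.4 kb for all protein-coding genes with a peak and 24.1 kb for all protein-coding genes. The part of gene length in the counts was not tested. Nor was that of RNA abundance. The input set aside in the protocol is not analysed here, and whether it or IgG was the control of the peaks is not given. An abundant RNA and one strongly bound by eIF4A1 therefore cannot be told apart here.

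**Figure D5:**
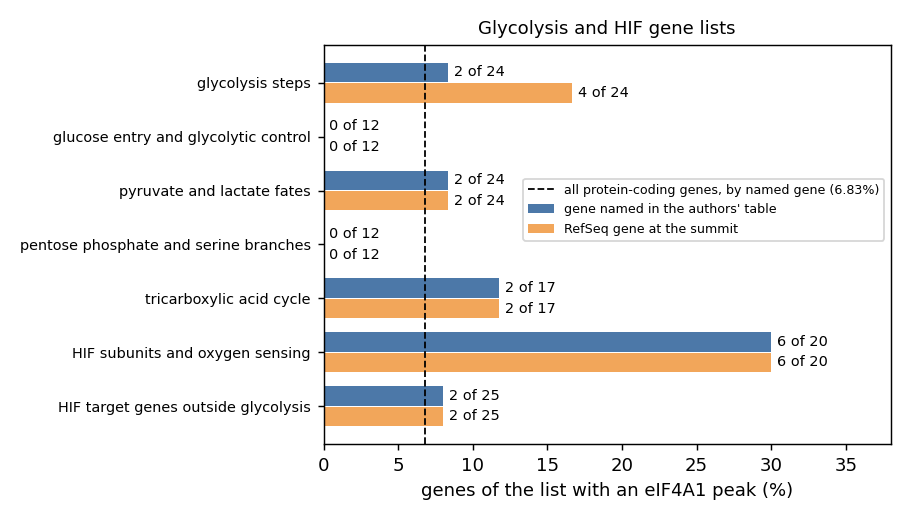
Share of each gene list with an eIF4A1 peak (percent, x axis), by the gene named in the authors' table (blue) and by the RefSeq gene at the summit (orange), with counts beside the bars. The dashed line is the 6.83% of all protein-coding genes. HIF subunits and oxygen sensing stand at 30%, and glycolysis steps at 8.33% and 16.7%, mostly through the genes chosen here.

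Transcriptional targets of HIF outside glycolysis were close to the background. Of 25 such genes, 2 had a peak (8%), and these were EGLN1 and EGLN3, which also belong to the oxygen-sensing list. VEGFA, CA9, BNIP3 and ADM had none. Marker genes of cell types were also counted. Peaks stood at 1 of 12 epithelial markers (8.33%, JUP, with 4) and at 0 of 8 androgen receptor and luminal prostate markers. Among blood and stromal markers 1 of 11 had a peak (9.09%, VWF, 1 intronic peak of 2 reads). At these list sizes the shares are near the 6.83% of protein-coding genes, so they do not inform on the cell type. A peak list holds too few genes to test the label.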

How the data were processed

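The authors deposited 1 peak track and 1 annotated peak table. The submitters' processing notes name MACS2 and ChIPseeker, beside BWA, STAR, Picard, Salmon and DESeq2, and the builds hg19, GRCh38 and hg38; versions and settings are not given in the sources used here. Per the file headers the track gives −log10 p, −log10 q, a score and a linear fold (ratio to control) per peak. Its peaks are named after the eIF4A1 library although it is filed under IgG; which library was the control is not given. The track holds 1920 peaks, and the 1919 in the table match it in summit and −log10 q.

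MACS2 defines the fold as (reads + 1)/(background + 1) and p as a Poisson tail, so both unknowns were solved per peak (scipy 1.17.1). Only whole read numbers were tried, and all 1920 peaks had one that gave −log10 p within 0.01. At 22 peaks a second whole number also lay within 0.01, and the closest was taken. On 500 simulated peaks 99.6% were recovered. These were drawn from the solved values with the same formula, so they check the solving step and not whether the formula holds for the deposited peaks. All 1606 backgrounds above the lowest were whole multiples (within 0.1) of 0.880/500, as windows of 1 kb and 10 kb give for a scaled control read of 0.880. At 113 peaks the background was at least 0.880, and at 108 of them a whole multiple of it, which was read as control reads at the summit.

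Genes were matched to RefSeq (GRCh38.p14) by gene ID or by summit inside the gene span. A gene counted as having a peak when named for a peak not called intergenic. Genes named are the 4 chosen, all list genes with a peak, the 3 nearest in fold at equal reads, and overlapping genes; PGAM4, and others named as having no peak, were chosen afterwards. A gene that this rule names is not reported here. The genes and 10 lists were chosen with earlier results of these data known. Depth is given per peak; intervals (exact binomial or Poisson, 95%) cover counting error only. Alternatives were 4 stricter peak definitions, gene body assignment, exon and UTR classes, and merged peaks.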

Additional observations from a re-analysis of the deposited data

How the results depend on the processing

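Read support limits every value here: the 4 peaks rest on 5 to 9 reads in 1 library, and a difference of a few reads is within counting error. Counts of genes with a peak changed with the peak definition. With a −log10 q of at least 5, of the 4 genes chosen 1 was left (PGAM1), with 1 for glycolysis steps, 1 for pyruvate and lactate fates, 1 for the tricarboxylic acid cycle, 3 for HIF subunits and oxygen sensing (EGLN1, EGLN3 and EP300), 0 for blood and stromal markers and 2.1% of protein-coding genes. With exon and UTR classes only, 2 of the genes chosen were left (PGAM1 and ENO1), with 1 for glycolysis steps, 0 for pyruvate and lactate fates, 1 for the tricarboxylic acid cycle, 2 for HIF subunits and oxygen sensing (EGLN1 and CREBBP), 1 for HIF targets, 0 for blood and stromal markers and 2.59% of protein-coding genes. This setting drops the promoter class, and with it HIF1A and PKM. With the background raised to 1 control read or more, 3 of the genes chosen were left (HIF1A, PKM and ENO1), with 1 for glycolysis steps, 3 for HIF subunits and oxygen sensing (HIF1A, EPAS1 and EP300), 0 for pyruvate and lactate fates, the tricarboxylic acid cycle, HIF targets, epithelial markers and blood and stromal markers alike, and 0.504% of protein-coding genes. With a fold of at least 5, and likewise with at least 5 reads, 0 were left for pyruvate and lactate fates, the tricarboxylic acid cycle, HIF targets and blood and stromal markers, and protein-coding genes fell to 1.65% and 1.9%. A fold of at least 5 left 3 of the genes chosen, without ENO1, and at least 5 reads left all 4. Fewer peaks entered all these settings by construction. Where ENO1 is kept, it counts among the genes chosen but not in the lists or the protein-coding share, which use the named gene. For the same reason EGLN1 is kept by the q setting and by the exon and UTR setting. Its entry there rests on the peak that lies in TSNAX-DT (−log10 q 5.14, exon class). The peak inside EGLN1 has a −log10 q of 2.37 and the promoter class, so it passes neither setting. The HIF target list is affected in the same way. By RefSeq gene body glycolysis steps rose to 4 genes, and the other lists, the genes chosen and the protein-coding share moved by less than 1.5 times. Merging peaks within 100 bases left 4 peaks. Leaving out a replicate was not possible, as both groups are single libraries. No paired analysis was possible because there is only 1 eIF4A1 and 1 IgG library.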
